A study of Mus musculus with 16 samples.

Results

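Trh, Emb and Fndc3c1 are 3 of the 19938 mouse genes measured on the arrays. They were chosen by their measured rise, as genes of the largest difference in kidney or liver tumors that formed after reprogramming was induced and stopped in mice. Trh ranked 1 and Fndc3c1 ranked 4 among all rises in kidney tumors, and Emb ranked 1 and Fndc3c1 ranked 2 among all rises in liver tumors. The values that chose them, kidney tumor against normal kidney and liver tumor against normal liver, are therefore given as a description and without a test. The transplanted secondary tumors and the ES cell array took no part in the choice.

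The 16 arrays held 1 sample each of total RNA. The secondary kidney tumors (3 arrays) were kidney tumors grown again after transplantation under the skin of immunodeficient mice, so they may also hold cells of that host. The kidney tumors (3 arrays) came from mice that carried doxycycline-inducible reprogramming factors. These mice received Dox from 4 weeks of age for 7 days, and their kidneys were taken 7 days after withdrawal. Normal kidney (3 arrays) was of the same age. Liver tumors (3 arrays) were primary tumors of reprogrammable mice, and normal liver (3 arrays) is labelled by tissue alone. The ES cells (1 array) had a 129xC57BL6 F1 background. The mice had been made from the ESC line, and their tissues were 129xC57BL6 F1 or of a mixed background of these strains. The tumors arose in chimeras, so ICR host cells may be among the tumor cells. Whether the normal tissues carried the inducible factors or received Dox, and which ages and Dox times applied to the liver samples, is not stated in the labels, and neither is whether replicates came from separate animals. The p-values therefore cover the spread of these arrays alone, part of which may be technical. The number of arrays limits the precision.

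Trh encodes the precursor of thyrotropin-releasing hormone, a tripeptide cut from repeats within the precursor, capped by glutaminyl cyclisation and amidated before release. In the hypothalamus it drives pituitary thyrotropin and through it the thyroid. Emb encodes embigin, an immunoglobulin-superfamily glycoprotein of the cell surface, related to basigin and neuroplastin, which carries monocarboxylate (lactate and pyruvate) transporters to the plasma membrane. Fndc3c1 is an X-linked gene for a protein with fibronectin type III domains, related to Fndc3a and Fndc3b. Fndc3a is known in mice for the adhesion of spermatids to Sertoli cells.

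Each gene was read by a single probe set, 10546417 for Trh on chromosome 6, 10407327 for Emb on chromosome 13 and 10606333 for Fndc3c1 on chromosome X. The 250 bases before each start site, from RefSeq on GRCm38.p6, are printed so that the promoters of the 3 genes can be set side by side. Capitals mark matches to the motifs searched on both strands, and overlapping matches run together.
Trh, chr6:92244651-92244900, minus strand: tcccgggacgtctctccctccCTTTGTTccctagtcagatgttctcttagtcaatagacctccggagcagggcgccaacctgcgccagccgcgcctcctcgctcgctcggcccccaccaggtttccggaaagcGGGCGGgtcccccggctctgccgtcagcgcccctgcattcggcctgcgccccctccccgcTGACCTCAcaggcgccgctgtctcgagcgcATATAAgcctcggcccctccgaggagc
Emb, chr13:117220323-117220572, plus strand: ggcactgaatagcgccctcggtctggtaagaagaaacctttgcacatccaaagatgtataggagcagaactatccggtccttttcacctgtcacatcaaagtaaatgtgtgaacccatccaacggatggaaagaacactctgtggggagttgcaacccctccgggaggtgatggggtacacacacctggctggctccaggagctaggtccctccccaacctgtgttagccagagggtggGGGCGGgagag
Fndc3c1, chrX:106485230-106485479, minus strand: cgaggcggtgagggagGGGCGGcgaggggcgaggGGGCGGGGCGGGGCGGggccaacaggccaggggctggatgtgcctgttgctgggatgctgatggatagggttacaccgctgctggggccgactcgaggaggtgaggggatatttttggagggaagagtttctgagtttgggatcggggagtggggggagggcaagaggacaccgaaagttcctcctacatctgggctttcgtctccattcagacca

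The 3 promoters differed in what they held. The SOX motif CTTTGTT matched once in Trh, starting at base -229 from the start site, and in 5.03% of 32851 mouse promoters of this length. The GC box GGGCGG matched at base -117 in Trh and at base -11 in Emb. Fndc3c1 had 4 GC boxes, 3 of them overlapping, and 32.7% of all promoters held at least 1. Trh also held ATATAA at base -27 (9.1% of promoters) and TGACCTCA at base -57 (1.94% of promoters), a sequence known in its promoter as Site 4. The octamer ATGCAAAT (1.6% of promoters), CCAAT (33.8%), TATAAA (12.4%), the cyclic AMP response element TGACGTCA (1.55%) and the E-box CACGTG (6.02%) were found in none of the 3 windows. The Trh window held 25 CpG dinucleotides, more than 89.3% of all promoters, against 14 in Fndc3c1 and 6 in Emb. A match is a description of letters, not of a bound factor.

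The levels below are log2 of the deposited intensity, in which 1 unit is 2-fold. They are compared between groups for a gene and never between genes. Trh stood at 11.62, 11.59 and 11.94 on the secondary kidney tumor arrays, at 12.40, 12.37 and 12.80 on the kidney tumor arrays, and at 6.61, 6.58 and 7.03 in normal kidney. It stood at 11.58, 11.51 and 10.64 in liver tumors, against 6.86, 7.05 and 6.94 in normal liver. The ES cell array gave 11.22. Every tumor array of either organ was thus more than 3 log2 units above every array of normal tissue, in a gene chosen for its rise in primary tumors.

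By mean level, Trh was highest in kidney tumors (12.52 ± 0.24, SD, n = 3), followed by secondary kidney tumors (11.71 ± 0.19), liver tumors (11.24 ± 0.53), ES cells, normal liver (6.95 ± 0.09) and normal kidney (6.74 ± 0.25). Liver tumors and the ES cell array could not be ordered, since 2 of the 3 liver tumor arrays lay above the ES cell array and 1 below it. Normal liver and normal kidney overlapped as well. The mean difference from the ES cell array was 1.30 in kidney tumors, 0.49 in secondary tumors and 0.023 in liver tumors. The ES cells were a single array, so these differences have no replicate check.

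Emb had levels of 11.73, 11.56 and 11.48 in secondary kidney tumors and 12.30, 12.29 and 12.51 in kidney tumors, against 9.68, 9.52 and 9.58 in normal kidney. In liver tumors it stood at 11.69, 12.51 and 11.53, against 7.29, 5.90 and 5.55 in normal liver. The ES cell array gave 11.41. Unlike the other two genes, Emb was well above the low end of the scale in normal kidney, and the normal tissues were 3.35 log2 units apart in their means.

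The order of Emb was kidney tumor (12.36 ± 0.12), liver tumor (11.91 ± 0.53), secondary kidney tumor (11.59 ± 0.13), ES cells, normal kidney (9.60 ± 0.08) and normal liver (6.25 ± 0.92). Liver tumors overlapped the kidney tumors above them and the secondary tumors below them. All 9 tumor arrays lay above the ES cell array, by 0.96 in the mean of kidney tumors, 0.50 in liver tumors and 0.19 in secondary tumors. The widest group was normal liver, where replicate 1 stood above the other two. That array also had the highest level of kidney markers in normal liver (mean log2 9.36 over 8 genes, against 8.33 and 7.19 on the other two) and of adipocyte markers (10.13 over 4 genes, against 7.17 and 7.09), and their part in the Emb level was not tested.

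Fndc3c1 stood at 9.99, 9.20 and 9.50 in secondary kidney tumors and at 10.61, 11.28 and 11.43 in kidney tumors, against 5.45, 5.39 and 5.96 in normal kidney. Liver tumors gave 10.44, 10.92 and 10.53, against 5.76, 5.41 and 5.96 in normal liver. The ES cell array was at 8.004, below all 9 tumor arrays and above all 6 arrays of normal tissue.

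Fndc3c1 was the member furthest above the ES cell array in tumors. The mean difference was 3.10 in kidney tumors (8.58-fold), 2.63 in liver tumors (6.18-fold) and 1.56 in secondary kidney tumors (2.95-fold). Kidney tumors (11.11 ± 0.44) and liver tumors (10.63 ± 0.26) overlapped, as did normal liver (5.71 ± 0.28) and normal kidney (5.60 ± 0.31), while secondary tumors (9.56 ± 0.40) overlapped no other group. No detection p accompanied the values, so the levels of Fndc3c1 and Trh in normal tissue, and of Emb in normal liver, cannot be told from background, and their folds may be compressed.

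**Figure D1:**
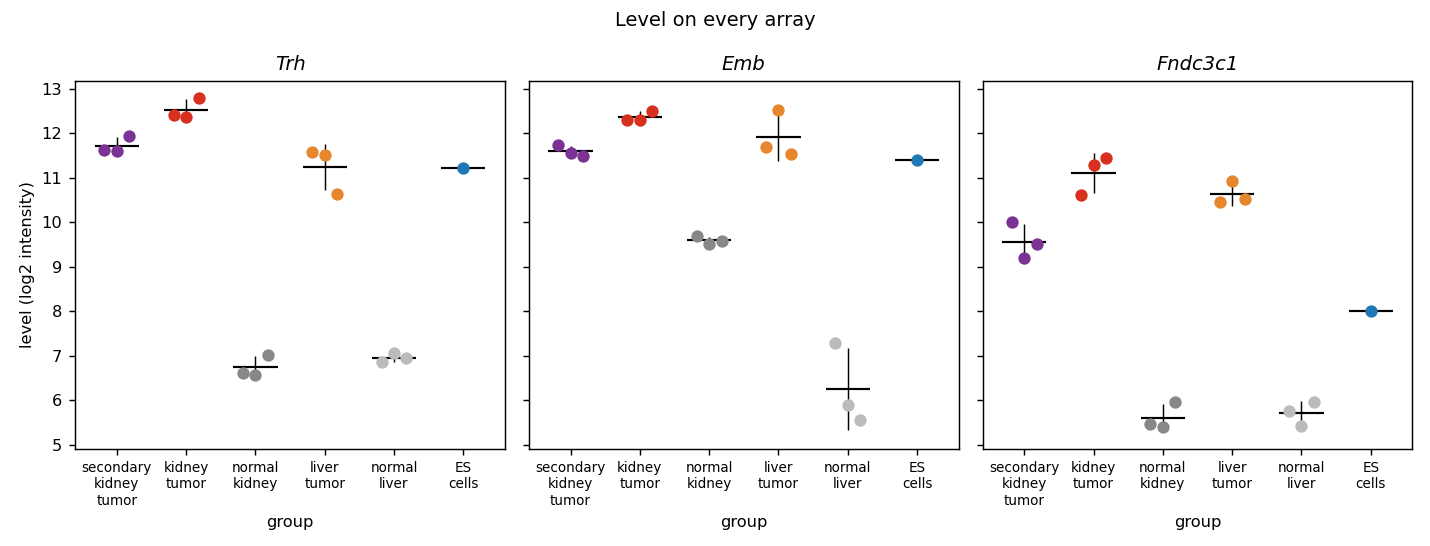
Level of Trh, Emb and Fndc3c1 on every array, as log2 intensity, by group; points are arrays, horizontal lines are group means and vertical lines are 1 SD (n = 3, ES cells 1 array). All 9 tumor arrays lie above the 6 arrays of normal tissue for each gene, in genes chosen for their rise in primary tumors. Fndc3c1 in ES cells (8.004) lies between tumors and normal tissue.

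In the comparisons that chose them, Trh was 5.79 ± 0.22 log2 units higher in kidney tumors than in normal kidney (SE of the limma fit), a 55.3-fold difference. Fndc3c1 was 5.50 ± 0.26 higher (45.4-fold). Emb was 2.77 ± 0.35 higher (6.82-fold) and ranked 210, so it was chosen for the liver. Around the choice in kidney stood the glucose transporter gene Slc2a3 at 5.78, the Nodal and BMP antagonist gene Cer1 at 5.69 and the imprinted gene Peg10 at 5.47. In liver tumors Emb was 5.66 ± 0.35 higher than in normal liver (50.6-fold), Fndc3c1 4.92 ± 0.26 (30.3-fold) and Trh 4.29 ± 0.22 (19.6-fold, rank 12). Next to them stood Slc2a3 at 4.83, Bex1 at 4.81 and the homeobox gene Otx2 at 4.65. A gene was called where limma gave it a p under 0.05 after Benjamini-Hochberg adjustment across the table. For kidney tumor against normal kidney 49.8% of genes were called, 21.7% higher and 28.1% lower, and for liver tumor against normal liver 52.3% were called, 21.5% higher and 30.7% lower. The arrays are of bulk tissue, in which fewer cells of a type and less RNA per cell cannot be told apart.

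The secondary kidney tumors, which took no part in the choice, kept the 3 genes above normal kidney. Trh stood 4.98 ± 0.22 higher (31.5-fold) and ranked 22 among all genes. Fndc3c1 stood 3.96 ± 0.26 higher (15.6-fold, rank 104) and Emb 2.00 ± 0.35 higher (3.99-fold, limma adjusted p 0.000279, rank 1084). In all 3 genes each of the 3 secondary arrays lay above each normal kidney array. The share of all genes whose arrays separate in this way was not counted. In this comparison 68.6% of all genes were called, 29.9% higher and 38.7% lower, so a call is common there. The normal kidney arrays helped to choose Trh and Fndc3c1 for being low there. The differences of these genes from normal kidney are therefore given as a description with no test.

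The kidney tumor arrays chose Trh and Fndc3c1 for being high there, so a lower level in the secondary tumors follows in part from the choice, and the differences of these genes from the primary tumors are given as a description with no test. Fndc3c1 stood at 0.344 of its kidney tumor level (-1.54 ± 0.26) and Trh at 0.570 (-0.81 ± 0.22). Without kidney tumor replicate 3 the difference of Trh was -0.67. Emb, which was chosen for the liver, stood at 0.585 of its kidney tumor level (-0.77 ± 0.35, limma adjusted p 0.109), which did not pass. Its arrays did not overlap between the groups, and how common this is among all genes was not counted. Of all genes, 36.0% were called, 18.5% higher and 17.4% lower.

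**Figure D2:**
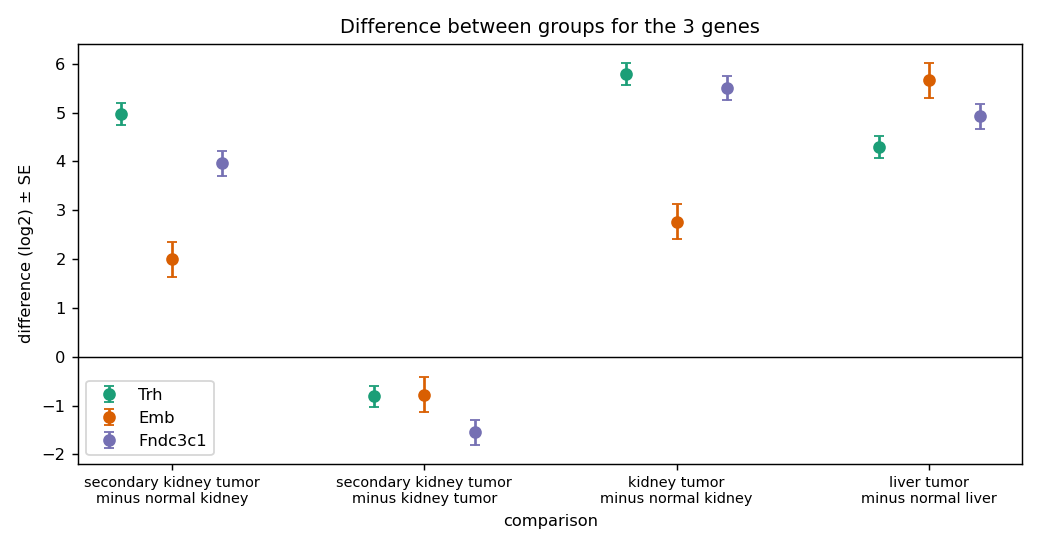
Log2 difference between groups for Trh, Emb and Fndc3c1 in 4 comparisons, with the SE of the limma fit. All 3 lie above 0 in each tumor against its normal tissue and below 0 in secondary against primary kidney tumors, where Emb (-0.77) did not pass the test and the other two were not tested.

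The median difference over all genes was -0.12 in secondary tumors and -0.11 in kidney tumors, each set against normal kidney, and -0.13 in liver tumors set against normal liver. Between secondary and primary tumors it was -0.071. After subtracting every array's own median these were -0.35, -0.24, -0.33 and -0.16, in the same order. The share of higher genes among the called then was 29.8%, 30.8%, 23.2% and 38.9%, in place of 43.6%, 43.6%, 41.2% and 51.5%. Small differences therefore depend on the scaling. Emb in secondary against primary tumors was -0.87 with centred arrays (limma adjusted p 0.0464). A fit of those groups alone is not a change of scale. There the difference of Emb stayed at -0.77, with an SE of 0.099 against 0.35 in the main fit (limma adjusted p 0.00247). The main fit shares 1 spread per gene over all groups, and the SD of Emb in normal liver was 0.92.

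Several arrays differed in what else they held. Xist, the RNA of the inactive X chromosome, stood at 10.84 and 10.19 on kidney tumor replicates 2 and 3 and at 10.45 and 11.35 on liver tumor replicates 2 and 3. It was 5.60 on kidney tumor replicate 1 and 5.88 on liver tumor replicate 1, between 5.65 and 6.31 on the other tissue arrays, and 7.84 in ES cells. Fndc3c1, which is X-linked, was lowest within its group on kidney tumor replicate 1 and on liver tumor replicate 1. Without the tumor arrays with Xist signal it was 5.01 higher in kidney tumors and 4.73 higher in liver tumors. In secondary against primary kidney tumors it was then -1.04, and Trh was -0.69. Each of these values rests on 1 tumor array, replicate 1, and has no replicate check. The part of Xist-expressing cells in the level of Fndc3c1 was not tested otherwise.

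The labelled tissues carried their markers. The mean level of 8 liver markers was 12.80 to 13.45 in liver tumors and 13.52 to 13.55 in normal liver. The mean level of 8 kidney markers was 12.87 to 12.99 in normal kidney and 10.84 to 12.12 in kidney tumors. In secondary tumors it was 6.67 to 6.82, near the 6.81 of ES cells. All 8 markers were called lower there than in primary tumors, against 17.4% of all genes. In kidney tumors 3 of these 8 markers were called lower than in normal kidney and 0 higher, against 28.1% and 21.7% of all genes. In secondary, kidney and liver tumors against normal tissue, 68.6%, 49.8% and 52.3% of all genes were called. Of 9 ES cell markers, 6 rose and 1 fell in secondary tumors. In kidney tumors 5 of these markers rose and 1 fell, and the same counts held in liver tumors. Their mean level was 7.90 to 8.90 in secondary tumors, 8.36 to 8.71 in kidney tumors and 7.81 to 8.69 in liver tumors, against 11.80 in ES cells. The group means of Trh and Emb in tumors thus lay at or above the ES cell array, while the mean level of the ES cell markers lay below it on every tumor array. Trh and Emb were chosen for their rise in primary tumors, so this contrast follows in part from the choice. It also rests on a single ES cell array. On liver tumor replicate 3, Trh (10.64) lay below the ES cell array (11.22).

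Hypothalamic neurons are the textbook source of Trh. Of 7 hypothalamic neuropeptide and neuroendocrine genes, 0 were called higher by limma in each of the 4 comparisons, and 0 were higher at an unadjusted p under 0.05. Of the same genes, 4 were lower in secondary tumors than in normal kidney. General neuron markers moved, with 7 of 7 higher in secondary tumors, 4 higher in kidney tumors, and 1 higher and 1 lower in liver tumors than in normal tissue. In secondary tumors their mean level over 7 genes was 10.62 to 11.14, against 8.03 to 8.83 in kidney tumors and 6.88 to 7.06 in normal kidney. In liver tumors it was 7.72 to 8.07, against 7.41 to 8.77 in normal liver. Of 7 testis and germ cell markers, 0 were higher in limma in kidney or liver tumors (0 also at an unadjusted p under 0.05) while 2 and 1 were lower there. In secondary tumors 2 of them were higher and 3 lower than in normal kidney. Of 6 myeloid markers, 5 rose in secondary tumors, 5 rose and 1 fell in kidney tumors, and 4 rose in liver tumors. Of 7 fibroblast markers, 7 rose in secondary, 3 in kidney and 1 in liver tumors. Of all genes, 29.9% were called higher and 38.7% lower in secondary tumors than in normal kidney. The shares were 21.7% and 28.1% in kidney tumors, and 21.5% and 30.7% in liver tumors. The part of the cell types of these markers in the levels of the 3 genes was not tested.

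To see whether genes that act with the members moved as well, 50 genes of their pathways and families were followed, of which 45 had a probe set of their own. In secondary tumors against normal kidney 16 were higher and 20 lower, which is 80% of those measured against 68.6% of all genes (median -0.16). In secondary against primary tumors 15 were higher and 14 lower (64.4% against 36.0%, median -0.081). In kidney tumors against normal kidney 7 were higher and 17 lower (53.3% against 49.8%, median -0.28), and in liver tumors against normal liver 3 were higher and 16 lower (42.2% against 52.3%, median -0.29). Under the deposited scale, quantile normalization and centring alike, 11 higher and 15 lower calls held in the first of these comparisons, 12 and 13 in the second, 4 and 15 in the third and 1 and 10 in the last.

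Of 23 measured genes of the thyrotropin-releasing hormone axis beside Trh, 8 were higher and 10 lower in secondary tumors than in normal kidney (78.3% called, against 68.6% of all genes). Against primary tumors 9 were higher and 3 lower (52.2% against 36.0%). In kidney tumors 2 were higher and 8 lower (43.5% against 49.8%), and in liver tumors 0 were higher and 10 lower (43.5% against 52.3%, and 0 and 13 at an unadjusted p under 0.05 in limma). Of the 6 genes that process the precursor, 3 were higher and 1 lower in secondary than in primary tumors, and 2 did not pass, Pam and Cpe (adjusted p 0.458 and 0.0549). Pcsk1, the prohormone convertase that cuts the Trh precursor, had levels of 7.60, 8.70 and 7.83 in secondary tumors, against 6.72, 7.09 and 7.08 in kidney tumors and 6.24, 6.14 and 6.40 in normal kidney. It rose in secondary tumors by 1.78 ± 0.30 over normal kidney (adjusted p 0.000192) and by 1.08 ± 0.30 over kidney tumors (adjusted p 0.0138), and its difference of 0.70 in kidney tumors did not pass (adjusted p 0.0698).

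Qpct, the glutaminyl cyclase that caps the peptide, stood at 8.45, 8.51 and 8.41 in secondary tumors, against 6.06, 6.53 and 6.58 in kidney tumors, a rise of 2.07 ± 0.29 (adjusted p 0.000104). Furin, another convertase, fell in secondary (-1.73 ± 0.18) and kidney tumors (-0.95 ± 0.18) against normal kidney. Pam, the amidating enzyme, fell in the same comparisons (-0.64 ± 0.26, adjusted p 0.0413, and -0.90 ± 0.26, adjusted p 0.0108), the first of which was -0.43 with quantile normalization and did not pass (adjusted p 0.133). The convertase gene Pcsk2 had no probe set of its own.

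The receptor gene Trhr was near the low end of the scale, with 6.06, 6.35 and 6.02 in secondary tumors, against 5.15, 5.27 and 5.10 in kidney tumors and 5.42, 5.43 and 5.21 in normal kidney. It was 0.79 ± 0.11 higher in secondary tumors than in normal kidney (adjusted p 5.1e-05), while the second receptor gene Trhr2 was lower there (-0.36 ± 0.12, adjusted p 0.0164). Neither Trhr nor Trhr2 passed in kidney tumors (adjusted p 0.198 and 0.311) or liver tumors (adjusted p 0.613 and 0.0591). Among enzymes that break the peptide down, Trhde, the ectoenzyme that degrades it, fell by 2.25 ± 0.10 in liver tumors (5.89, 5.95 and 6.03, against 8.16, 8.22 and 8.25 in normal liver, adjusted p 1.54e-08). Trhde rose by 1.06 ± 0.10 in secondary tumors over normal kidney (adjusted p 1.21e-06). Pgpep1, a pyroglutamyl peptidase of the cytosol, differed by -1.51 ± 0.13 in secondary tumors, -1.86 ± 0.13 in kidney tumors and -0.85 ± 0.13 in liver tumors, each against normal tissue, and passed in all 3. Prep, a prolyl endopeptidase, rose by 0.78 ± 0.11 in secondary and 0.79 ± 0.11 in kidney tumors (adjusted p 4.12e-05 and 7.12e-05) and did not pass in liver tumors (adjusted p 0.991).

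Of 6 genes that act downstream, on thyroid hormone, 3 fell and 2 rose in secondary tumors against normal kidney (83.3% called, against 68.6% of all genes). In kidney tumors 4 fell and 1 rose (83.3% against 49.8%), and in liver tumors 4 fell (66.7% against 52.3%), each against normal tissue. Dio1, the deiodinase of kidney and liver that activates thyroxine, had 6.03, 6.40 and 5.96 in secondary tumors and 6.79, 7.49 and 6.17 in kidney tumors, against 9.34, 9.36 and 9.56 in normal kidney. The differences were -3.29 ± 0.32 (adjusted p 1.5e-06) and -2.60 ± 0.32 (adjusted p 2.58e-05). In liver tumors Dio1 was at 7.73, 8.72 and 9.01, against 11.59, 11.63 and 11.82 in normal liver (-3.19 ± 0.32, adjusted p 7.9e-06). The receptor gene Thrb fell too, with differences of -2.91 ± 0.28, -1.96 ± 0.28 and -1.82 ± 0.28 in secondary, kidney and liver tumors. The ES cell array gave 6.07 for Dio1 and 6.34 for Thrb. The mean level of the kidney markers was lower in secondary and kidney tumors too, as given above, and their part in these falls was not tested. The receptor gene Thra split the tumors. It stood at 11.18, 11.42 and 11.57 in secondary tumors, against 9.58, 9.32 and 9.35 in kidney tumors and 10.36, 10.25 and 10.35 in normal kidney, so it rose in secondary tumors (1.07 ± 0.16, adjusted p 6.09e-05) and fell in kidney tumors (-0.90 ± 0.16, adjusted p 0.000378) against normal kidney. Thyroid and pituitary genes (Tg, Tshb, Tshr, Cga, Prl and Slc5a5) gave no call above normal tissue except Cga, at 6.01 ± 0.11 in secondary tumors against 5.74 ± 0.04 in normal kidney (0.28 ± 0.09, adjusted p 0.0123). Cga lay at the low end of the scale, and a difference this small depends on the scaling, as given above. Of these 6 genes, 1 was higher and 3 lower in secondary tumors than in normal kidney (66.7% called, against 68.6% of all genes). In kidney tumors 0 were called (0% against 49.8%), and in liver tumors 1 was lower (16.7% against 52.3%).

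Of 13 measured genes beside Emb, 2 were higher and 9 lower in secondary tumors than in normal kidney (84.6% called, against 68.6% of all genes). Against primary tumors 1 was higher and 11 lower (92.3% against 36.0%). In kidney tumors 3 were higher and 6 lower (69.2% against 49.8%), and in liver tumors 2 were higher and 3 lower (38.5% against 52.3%). The 2 genes above normal kidney in both kidney tumor groups were lactate transporters. Slc16a3, the monocarboxylate transporter MCT4 known for lactate export from glycolytic cells, stood at 10.06, 10.07 and 10.23 in secondary tumors and at 11.33, 11.03 and 11.52 in kidney tumors, against 7.67, 7.74 and 7.79 in normal kidney. It was at 11.07, 11.54 and 11.30 in liver tumors, against 8.03, 7.77 and 7.76 in normal liver, and at 11.51 in ES cells. The rises over normal tissue were 2.38 ± 0.14 in secondary (adjusted p 1.36e-08), 3.56 ± 0.14 in kidney (adjusted p 4.38e-09) and 3.45 ± 0.14 in liver tumors (adjusted p 7.18e-09).

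Slc16a1, the transporter MCT1, rose in kidney tumors by 2.42 log2 units more than in liver tumors, each against normal tissue (interaction term in limma, adjusted p 5.64e-05), where 16.8% of all genes had such a difference. It stood at 10.86, 10.83 and 10.81 in secondary tumors and at 12.27, 12.21 and 12.47 in kidney tumors, against 9.55, 9.62 and 9.41 in normal kidney (rises of 1.31 ± 0.17 and 2.79 ± 0.17, adjusted p 2.19e-05 and 1.46e-07). In liver tumors it stood at 11.42, 12.36 and 11.76, overlapping the 11.52, 11.42 and 11.50 of normal liver (0.37 ± 0.17, adjusted p 0.0913). Both transporters fell in secondary against primary kidney tumors (-1.17 ± 0.14 for Slc16a3 and -1.48 ± 0.17 for Slc16a1).

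There were 7 measured genes of monocarboxylate and pyruvate transport, Slc16a1 and Slc16a3 among them. In secondary tumors 2 were higher and 5 lower than in normal kidney (100% called, against 68.6% of all genes). Against primary tumors 0 were higher and 6 lower (85.7% against 36.0%). In kidney tumors 2 were higher and 3 lower (71.4% against 49.8%), and in liver tumors 1 was higher and 2 lower (42.9% against 52.3%). Slc5a12, a sodium-coupled lactate transporter, was at 5.62, 5.80 and 5.63 in secondary tumors, against 11.63, 12.29 and 11.45 in kidney tumors and 12.69, 12.84 and 12.70 in normal kidney, a fall of 7.06 ± 0.55 below normal kidney (adjusted p 1.85e-07). In kidney tumors its difference of -0.96 did not pass (adjusted p 0.167). Slc5a8, its relative, fell in secondary (-5.08 ± 0.43) and kidney tumors (-2.98 ± 0.43), and so did Slc16a7, the transporter MCT2 (-3.01 ± 0.26 and -2.03 ± 0.26). Among 4 lactate dehydrogenase genes, Ldhd, for D-lactate, fell in secondary (-5.59 ± 0.46), kidney (-1.86 ± 0.46) and liver tumors (-1.29 ± 0.46, adjusted p 0.0314, and 0.0567 with quantile normalization). These are falls beside the lower mean level of kidney markers given above, whose part was not tested.

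The relatives of Emb, basigin and neuroplastin, were not called higher than normal tissue in secondary, kidney or liver tumors. Bsg, the basigin gene, was at 11.86, 11.87 and 11.87 in secondary tumors and 12.12, 12.03 and 12.05 in kidney tumors, against 12.36, 12.37 and 12.42 in normal kidney. The differences were -0.52 ± 0.06 (adjusted p 3.51e-06) and -0.32 ± 0.06 (adjusted p 0.000423), and the second was 0.068 (adjusted p 0.344) with quantile normalization. Nptn, the neuroplastin gene, was -0.36 ± 0.09 in kidney tumors (adjusted p 0.00307) and 0.15 ± 0.09 in liver tumors (adjusted p 0.158).

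Of 9 measured genes beside Fndc3c1, 6 were higher and 1 lower in secondary tumors than in normal kidney (77.8% called, against 68.6% of all genes). Against primary tumors 5 were higher and 0 lower (55.6% against 36.0%, and 5 and 0 at an unadjusted p under 0.05 in limma). In kidney tumors 2 were higher and 3 lower (55.6% against 49.8%), and in liver tumors 1 was higher and 3 lower (44.4% against 52.3%). The close relative Fndc3a did not pass in any of the 4 comparisons, with mean differences between -0.27 and 0.18. These are small beside those of Fndc3c1, which was chosen for its rise in primary tumors. Fndc3b rose by 0.84 ± 0.09 in secondary, 0.25 ± 0.09 in kidney and 0.36 ± 0.09 in liver tumors (adjusted p 4.32e-06, 0.039 and 0.00649). With arrays centred it was 0.12 in kidney and 0.16 in liver tumors and did not pass (adjusted p 0.350 and 0.204). Fndc4 stood at 9.50, 9.67 and 9.72 in secondary tumors and 9.03, 9.29 and 9.63 in kidney tumors, against 7.27, 7.62 and 7.12 in normal kidney, with rises of 2.29 ± 0.15 and 1.98 ± 0.15. Fndc1 was highest in the secondary tumors, at 10.26, 9.40 and 8.62, against 6.59, 6.97 and 6.90 in kidney tumors (2.61 ± 0.37, adjusted p 0.000102). Its highest array, secondary replicate 1, also had the highest mean log2 level of adipocyte markers in that group (9.66, against 6.42 and 6.19). Fibroblast (11.80, against 11.69 and 11.34), myeloid (10.03, against 9.50 and 9.19) and liver markers (7.64, against 7.04 and 7.11) were highest there too. Neuron (10.62, against 11.09 and 11.14) and ES cell markers (7.90, against 8.90 and 8.46) were lowest there. The part of any of these in the Fndc1 level was not tested.

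**Figure D3:**
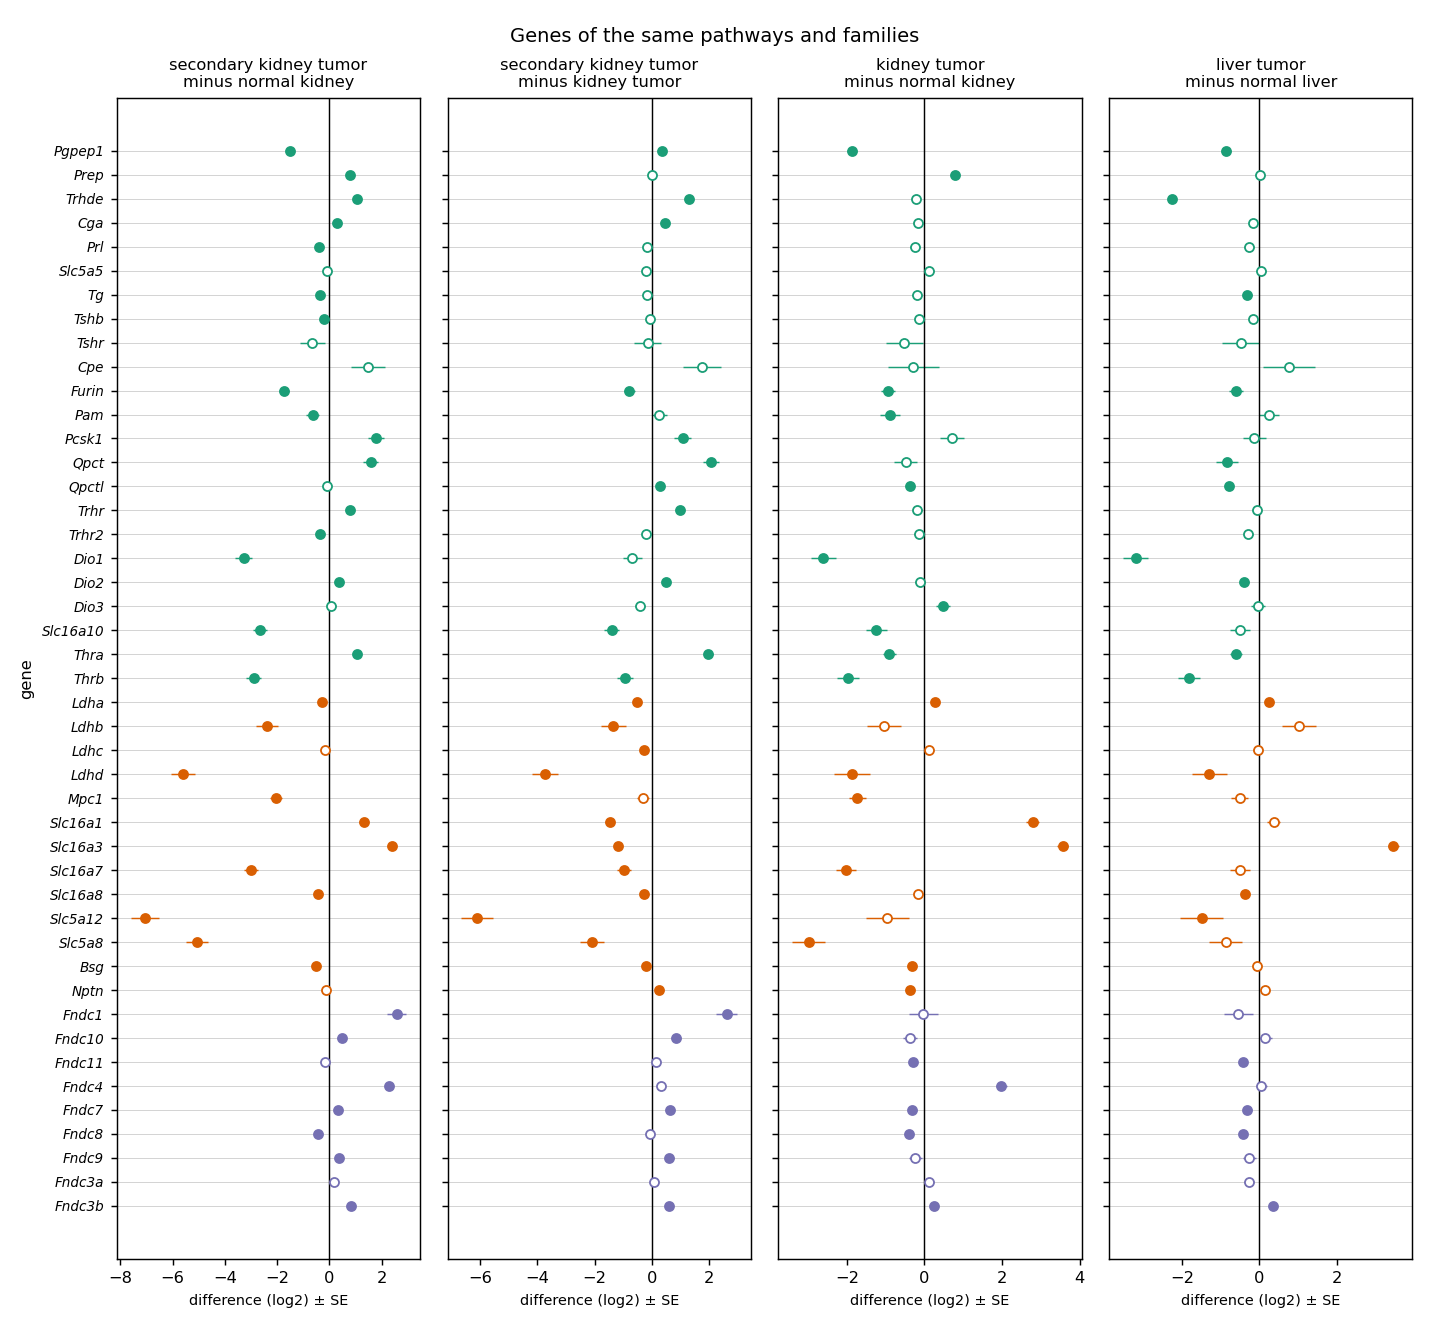
Log2 difference with the SE of the limma fit for 45 genes of the thyrotropin-releasing hormone axis (green), of embigin relatives and monocarboxylate metabolism (orange) and of the Fndc family (violet) in 4 comparisons; filled points passed the test at an adjusted p under 0.05. Slc16a3 lies above 2 in each tumor group against normal tissue, and Dio1 and Thrb lie below -1.5.

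Next to Fndc3c1 on chromosome X lies Fnd3c2, a gene of the same family, which stayed at the low end of the scale. Its levels were 4.87, 4.85 and 5.001 in secondary tumors, 5.06, 5.02 and 4.98 in kidney tumors and 5.003, 4.95 and 5.13 in normal kidney. In liver tumors they were 5.08, 5.003 and 4.99, against 4.98, 4.98 and 4.99 in normal liver, and ES cells gave 5.17. None of its 4 differences, from -0.12 to 0.043, passed. Among the 5 genes with a probe set on each side of Fndc3c1, 4 were higher and 2 lower in secondary tumors than in normal kidney, 2 and 2 in kidney tumors and 5 and 0 in liver tumors. Lpar4, a lysophosphatidic acid receptor gene, rose by 3.01 ± 0.28, 3.36 ± 0.28 and 2.56 ± 0.28 in secondary, kidney and liver tumors. The gene order is that of RefSeq on GRCm38.p6, while the submitters' processing notes name the build mm9.

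Around Emb on chromosome 13, 3 of 10 neighbours were higher and 5 lower in secondary tumors, 2 and 3 in kidney tumors and 4 and 2 in liver tumors. Fgf10, a growth factor gene of budding organs, rose by 1.00 ± 0.32, 2.79 ± 0.32 and 2.54 ± 0.32 in secondary, kidney and liver tumors. The LIM homeobox gene Isl1 rose by 2.39 ± 0.35 in secondary and 2.67 ± 0.35 in kidney tumors. Around Trh on chromosome 6 the differences were smaller, from -0.87 to 0.44 in kidney tumors (2 of 10 higher and 2 lower) and from -0.63 to 0.87 in liver tumors (3 and 2). In secondary tumors 3 were higher and 4 lower than in normal kidney, led by Prickle2, a planar polarity gene, at 1.81 ± 0.10. The counts of calls among 10 neighbours stand beside 68.6%, 49.8% and 52.3% of all genes called in these comparisons.

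**Figure D4:**
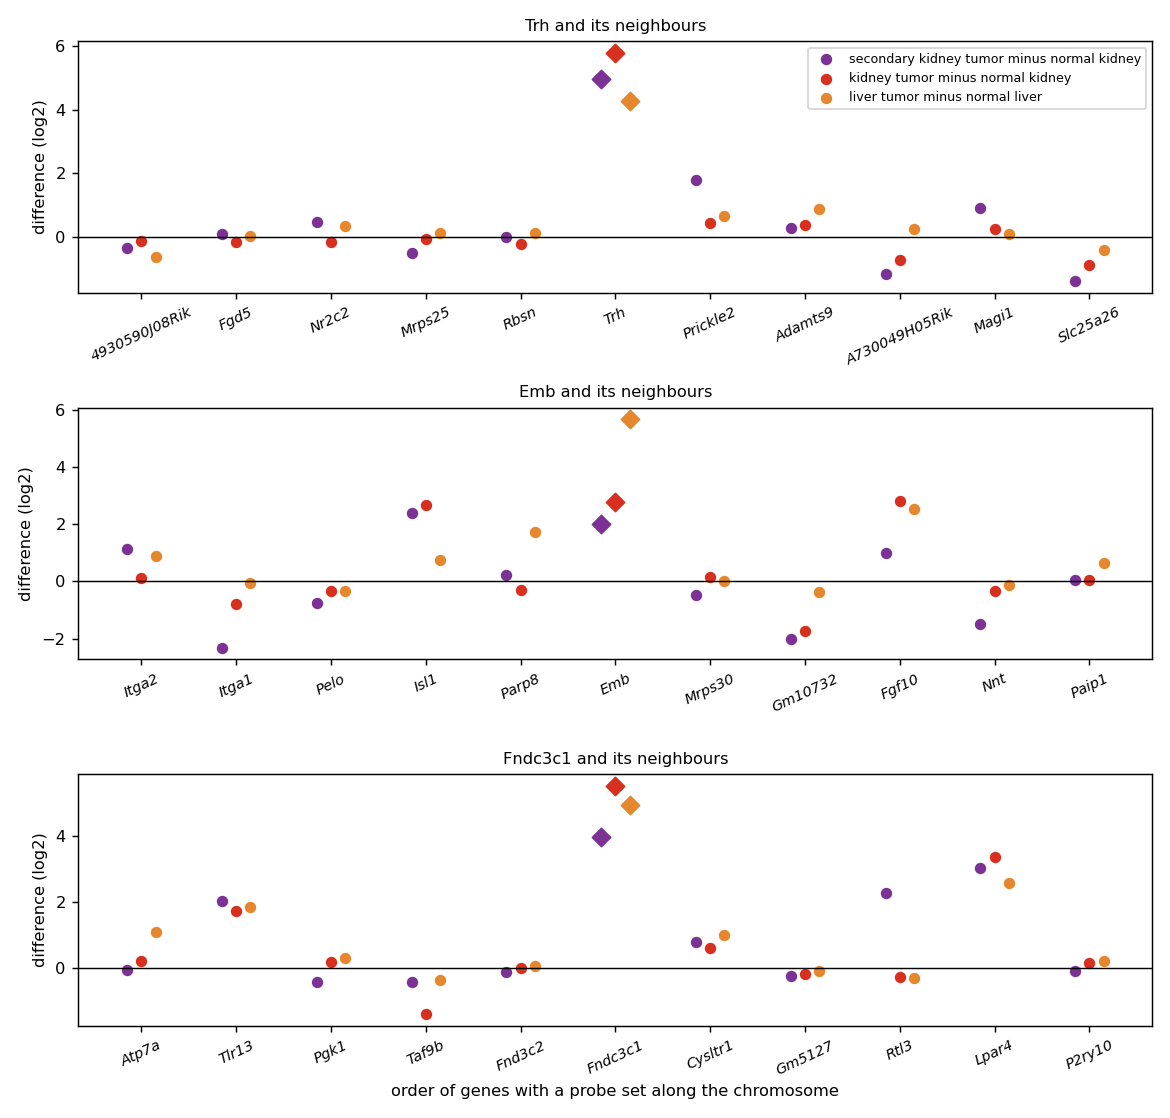
Log2 difference against normal tissue for each member (diamonds) and the 5 genes with a probe set on either side of it, in gene order. Trh lies more than 3 log2 units above each of its neighbours in kidney and liver tumors, while Lpar4 beside Fndc3c1 and Fgf10 beside Emb also lie above 2.5 in both. The members were chosen for their rise in kidney or liver tumors, so their distance from the neighbours there follows in part from the choice.

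The genes of most similar pattern were ranked by Pearson's r of log2 level over the 15 tissue arrays, among 2212 genes whose SD over these arrays was at least 1. The arrays share groups and organs, so r mainly reflects the differences between the 5 group means. The lists depend on the measure, since by Spearman's rho most of the nearest genes of each member were others. Nearest to Trh were Tead2, a TEA-domain transcription factor gene (r = 0.991), the corepressor gene Rcor2 (0.988), Otx2 (0.988), the arginine methyltransferase gene Prmt1 (0.987) and the RNA-binding protein gene Mex3a (0.985). Tead2 averaged 10.79 in secondary tumors and 11.32 in kidney tumors, against 7.90 in normal kidney, and 10.87 in liver tumors, against 8.06 in normal liver.

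Nearest to Emb were Plp2, a proteolipid membrane protein gene (r = 0.993), the heparin-binding growth factor gene Mdk (0.983), the pyruvate kinase gene Pkm (0.982), the ribosomal S6 kinase gene Rps6ka6 (0.978) and Sinhcaf, a gene of the SIN3 and histone deacetylase complex (0.969). Plp2 averaged 11.99 in secondary tumors and 12.29 in kidney tumors, against 10.74 in normal kidney, and 11.95 in liver tumors, against 9.17 in normal liver. Like Emb, these 5 genes had a higher mean in normal kidney than in normal liver. The normal tissue arrays entered r, so this follows in part from how the genes were picked. It was not tested.

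Nearest to Fndc3c1 were the retinoic acid binding protein gene Crabp1 (r = 0.991), Tead2 (0.989), the zinc finger gene Sall4 of stem cells (0.987), Slc16a3 (0.987) and the cyclin-like gene Ccnjl (0.986). Sall4 averaged 9.73 in secondary tumors and 11.35 in kidney tumors, against 7.24 in normal kidney, and stood at 11.53 in ES cells. In the ES cell array, which r did not use, each of these 5 genes was nearer to its kidney tumor mean than Fndc3c1 was.

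**Figure D5:**
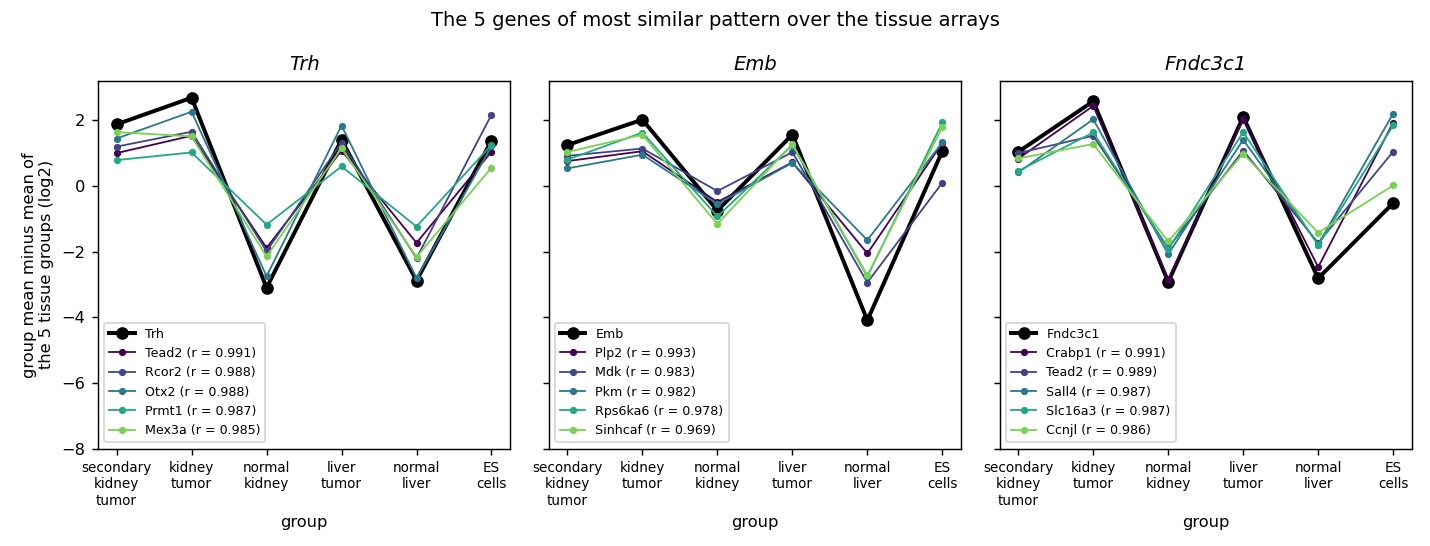
Mean log2 level of each member (black) and of the 5 genes of most similar pattern by group, each minus its mean over the 5 tissue groups. Fndc3c1 in ES cells lies about 3.1 log2 units below its kidney tumor mean, and the ES cell array was not used for r.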

How the data were processed

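Total RNA was measured on 1-colour Affymetrix arrays. Per the labels' protocols, RNeasy Plus Mini kits gave the RNA, and samples were labelled with biotin after enzymatic fragmentation. The authors deposited a linear intensity per probe set and array, from 20.7 to 20262, with array medians of 191 to 226. How they corrected, summarised and normalized it is not given in the sources used here. Replicates correlated at 0.970 to 0.995 within groups.

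Values were put on the log2 scale as deposited, without rescaling. Of 28856 probe sets, 21789 had 1 symbol in the platform annotation, 1621 several and 5446 none. Probe sets of 1 symbol were used, and the highest mean was kept for the 999 genes with more than 1. Tests used limma 3.58.1 (R 4.3.3) with a coefficient for each group and all 16 arrays (10 residual and 2.66 prior degrees of freedom), 2-sided. The fit was tested on simulated data. No dim gene was removed. The planned limma tests of Trh and Fndc3c1 in secondary tumors, against kidney tumors and against normal kidney, were run but are not reported as tests. The kidney tumor and normal kidney arrays chose these genes.

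The members and lists were chosen with earlier results of these data known. Named genes were the members, the 5 most similar by r (predicted models, receptor families and small RNAs left out), the 5 largest risers, the 2 called genes of largest fold per list, direction and comparison, and 5 neighbours on each side. Fndc3a, the relatives of Emb and other list genes with smaller differences were named for their role, after their values were seen. The adipocyte list was added after seeing the data. Promoters came from RefSeq tables on GRCm38.p6. Protein sequences, the sorted cells and the methylation data of the series were not used here.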

Additional observations from a re-analysis of the deposited data

Results flagged for a closer look

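The change from normal tissue differed between kidney and liver tumors in 13 of the 45 genes of the 3 families, by an interaction term in limma adjusted over all genes. This is 28.9% of them, against 16.8% of all genes. The values are the kidney effect minus the liver effect, in log2. The largest positive differences were Slc16a1 at 2.42 (adjusted p 5.64e-05), Trhde at 2.02 (adjusted p 6.26e-06) and Fndc4 at 1.93 (adjusted p 8.14e-05), where the kidney effects were 2.79, -0.23 and 1.98 and the liver effects 0.37, -2.25 and 0.051. In normal liver and normal kidney the mean levels were 11.48 and 9.53 for Slc16a1, 8.21 and 6.09 for Trhde, and 9.49 and 7.34 for Fndc4.

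Prep differed by 0.78 (adjusted p 0.0046) and Qpctl by 0.40 (adjusted p 0.00818). On the negative side stood Slc5a8 at -2.11 (adjusted p 0.0296), Ldhb at -2.05 (adjusted p 0.0373), Slc16a7 at -1.53 (adjusted p 0.0125) and Mpc1 at -1.22 (adjusted p 0.0168). They were followed by Pam at -1.14 (adjusted p 0.0489), Pgpep1 at -1.01 (adjusted p 0.00227), Nptn at -0.51 (adjusted p 0.0113) and Bsg at -0.26 (adjusted p 0.0434). The interaction was fitted only on the deposited scale with all arrays, so its dependence on the processing was not tested. The kidney effect of Bsg was -0.32 as deposited and 0.068 with quantile normalization. For Ldhb neither the kidney effect (-1.04) nor the liver effect (1.01) was called. The kidney markers differed between the arrays as well, by a mean level of 10.84 to 12.12 in kidney tumors against 12.87 to 12.99 in normal kidney, and their part in these differences was not tested. The 3 members were not tested for a difference between organs, since both effects chose them.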

How the results depend on the processing

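Each of the 12 differences of the members kept its direction under every alternative. Emb in secondary against primary kidney tumors passed in a fit of the compared groups alone (-0.77, adjusted p 0.00247) and with arrays centred (-0.87, adjusted p 0.0464), and ranged over all alternatives in adjusted p from 0.00247 to 0.377. Trh in that comparison, described without a test, was -0.67 without kidney tumor replicate 3 and -0.69 without the kidney tumor arrays with Xist signal, where 1 kidney tumor array remained; leaving out single arrays gave -0.92 to -0.67. Emb in kidney tumors was 2.96 with quantile normalization and 2.64 with centring, and Fndc3c1 was 5.01 without the arrays with Xist signal. Emb in liver tumors was 5.31 to 6.18 when single arrays were left out.

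The count of called family genes was 23 in place of 36 without the dimmest genes (secondary tumor against normal kidney), where fewer genes were tested. Without the arrays with Xist signal, where fewer samples were tested, it was 14 in place of 24 in kidney tumors and 10 in place of 19 in liver tumors, each with 1 tumor array left. With arrays centred it was 28 in liver tumors (1 higher and 27 lower, in place of 3 and 16) and 28 in kidney tumors (4 and 24, in place of 7 and 17). The liver alternative was chosen after seeing the data. Of single family genes, 2 reversed with quantile normalization, Bsg in kidney tumors (0.068) and Ldha in secondary tumors against normal kidney (0.086); the cause was not tested. Another 170 values fell short of the threshold. By Spearman's rho 1 of the 5 genes nearest to Trh was the same, and 0 of those nearest to Emb or Fndc3c1.

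Whether the replicate numbers pair the samples is not known. Deviations of same-numbered arrays correlated from -0.278 to 0.150, and weak correlations cannot exclude a pairing. With the replicate block, Trh in secondary against primary tumors was -0.81, and the called family genes were 35, 29, 25 and 19 in secondary tumor against normal kidney, secondary against primary tumor, kidney tumor and liver tumor, against 36, 29, 24 and 19 without it. No detection p was given, so values at the low end set no limit.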
